A study of Mus musculus with 9 samples.

Results

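The genes described here are Pitx3, Nr4a2, En1, En2, Lmx1a, Lmx1b, Foxa1 and Foxa2, the transcription factors that set and keep the identity of midbrain dopamine (DA) neurons. They were chosen by name, and each was found through its Ensembl identifier as 1 row of the count tables, which gave 8 of 47729 rows. The libraries came from dissected midbrain of C57/Bl6 mice at 180 days, and all mice carried Pitx3-Cre/+ and the Rosa-lox-stop-lox-YFP reporter. The mice carried 0, 1 or 2 floxed alleles of Dot1l, the enzyme that methylates lysine 79 of histone 3, and the genotypes are written Dot1l(+/+) for the controls, Dot1l(fl/+) for the heterozygotes and Dot1l(fl/fl) for the conditional knock-outs (cKO). There were 3 libraries a genotype, each a pool of 3 mice, and the tables held 16422135 to 28403218 counts per library.

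Some properties of the model bear on these genes. Cre was expressed from the Pitx3 locus, so in every group 1 of the Pitx3 alleles carried Cre and Pitx3 was measured on that background. The labels call the tissue midbrain DA neurons, but it was cut from slices and not sorted: the 5 oligodendrocyte markers summed to 9561 to 10942 CPM (counts scaled to library size, with TMM factors) in each library, against 611 to 867 CPM for the 11 DA neuron markers. Fewer DA neurons and less RNA per neuron therefore cannot be told apart. Counts per gene cover the whole of Dot1l, not its floxed exon 5, so they check no deletion, and Dot1l itself stood at 83.4 ± 2.85, 73.4 ± 11.95 and 79.6 ± 4.95 CPM (SD, n = 3) in controls, heterozygotes and cKO.

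As background, midbrain DA neurons arise from the ventral floor of the embryonic midbrain, where Foxa1 and Foxa2 and the LIM-homeodomain factors Lmx1a and Lmx1b act in progenitors. The nuclear receptor Nr4a2 (Nurr1) and the homeodomain factor Pitx3 are then switched on in postmitotic neurons and drive the transmitter genes, tyrosine hydroxylase (Th), the vesicular monoamine transporter (Slc18a2) and the dopamine transporter (Slc6a3), while the paralogs En1 and En2 are needed for survival of the neurons. Most of these genes are expressed elsewhere too: Lmx1b in serotonin neurons, En1 and En2 in hindbrain and cerebellum, Nr4a2 in parts of the cortex, and Foxa1, Foxa2 and Lmx1a in the subthalamic and mammillary region.

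On GRCm38, Pitx3 lies at chr19:46135685-46148326 on the minus strand and shares 10 exonic bases with Elovl3 on the other strand, so these bases alone could mix the counts of both genes if strand was not used in counting. Nr4a2 lies at chr2:57106830-57124003 (minus), En1 at chr1:120602418-120607992 (plus) and En2 at chr5:28165694-28172166 (plus). Lmx1a lies at chr1:167689237-167848741 (plus) and Lmx1b at chr2:33560965-33640511 (minus). Foxa1 lies at chr12:57540628-57546916 (minus) and Foxa2 at chr2:148042877-148046969 (minus). No other member shares exonic bases with an annotated gene.

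RefSeq start sites (GRCm38.p6) were found for 7 of the 8 genes, all but En2. They can differ from the gene ends given above, and the RefSeq start of Lmx1b lies beyond the bounds given for that gene. The 250 bases upstream are printed for Pitx3 and Lmx1b, which had the lowest p-values between Dot1l(fl/fl) and controls, and for Nr4a2, whose difference was the smallest. They run 5′ to 3′ on the strand of the gene, and capitals mark CpG dinucleotides.
Pitx3 (chr19:46148326-46148575, minus): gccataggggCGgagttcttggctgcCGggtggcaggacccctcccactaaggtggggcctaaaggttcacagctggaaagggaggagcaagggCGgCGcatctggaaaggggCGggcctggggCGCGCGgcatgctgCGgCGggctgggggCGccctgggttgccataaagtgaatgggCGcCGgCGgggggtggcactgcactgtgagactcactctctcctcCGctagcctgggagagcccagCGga
Lmx1b (chr2:33641099-33641348, minus): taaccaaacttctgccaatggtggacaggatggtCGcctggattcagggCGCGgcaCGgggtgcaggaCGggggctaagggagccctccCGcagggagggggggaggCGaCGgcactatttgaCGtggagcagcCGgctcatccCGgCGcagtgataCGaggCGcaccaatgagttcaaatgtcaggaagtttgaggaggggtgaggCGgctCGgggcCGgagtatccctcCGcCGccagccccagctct
Nr4a2 (chr2:57124004-57124253, minus): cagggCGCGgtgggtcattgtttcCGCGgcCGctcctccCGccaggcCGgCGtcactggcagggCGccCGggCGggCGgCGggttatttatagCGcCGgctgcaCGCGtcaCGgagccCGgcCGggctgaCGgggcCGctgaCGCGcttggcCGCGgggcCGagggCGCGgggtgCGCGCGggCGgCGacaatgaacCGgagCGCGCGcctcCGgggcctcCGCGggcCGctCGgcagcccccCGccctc
These stretches held 16 CpG in Pitx3, 19 in Lmx1b and 44 in Nr4a2. In windows of 300 bases around the start (250 before, 50 after), the Nr4a2 window was 81.7% G or C with 52 CpG, which put it at percentile 99.5 of 32851 mouse windows for CpG, while Pitx3 stood at 71.7% with 20 CpG and Lmx1b at 65.7% with 24. The median window had 52.7% and 7 CpG.

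Each window was also searched on both strands for the core letters that the 8 factors are known to bind: AAGGTCA (Nr4a2), TAATCC (Pitx3), TAATTA (En1, En2, Lmx1a and Lmx1b) and TGTTTAC or TATTTAC (Foxa1 and Foxa2). Among all windows, 4.72% held the first, 7.06% the second, 5.29% the third and 6.54% the fourth. The only match among the members was a forkhead core read on the opposite strand, which starts 141 bases upstream of the RefSeq start of Foxa1. That start and the stretch printed here lie inside the bounds given above for the gene. The match is shown because it is a letter match for the protein family that Foxa1 belongs to. Capitals mark it.
Foxa1 (chr12:57546112-57546361, minus): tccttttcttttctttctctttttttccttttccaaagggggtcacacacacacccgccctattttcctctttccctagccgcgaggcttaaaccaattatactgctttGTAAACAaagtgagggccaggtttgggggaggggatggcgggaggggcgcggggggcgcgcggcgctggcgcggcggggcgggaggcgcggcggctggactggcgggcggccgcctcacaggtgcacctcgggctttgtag

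In the control midbrain Nr4a2 was by far the most abundant of the 8. Levels per length of exon were 8.64 ± 0.724 CPM per kb (SD, n = 3) for Nr4a2, 1.82 ± 0.0490 for En1, 1.67 ± 0.182 for Foxa1, 1.65 ± 0.164 for En2, 1.18 ± 0.165 for Lmx1b, 1.16 ± 0.175 for Foxa2, 0.658 ± 0.143 for Lmx1a and 0.453 ± 0.152 for Pitx3. In this order the libraries of neighbours did not overlap between Nr4a2 and En1, between En2 and Lmx1b, and between Foxa2 and Lmx1a, while the other neighbours overlapped. Nr4a2 ranked at percentile 67.2 of the 17671 genes tested, and Pitx3 at percentile 12.7.

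Between genotypes, no member passed an adjusted p of 0.05, and 4 of the 8 were lower in Dot1l(fl/fl) than in controls at an unadjusted p under 0.05. These were Pitx3, Lmx1b, En1 and Foxa2, with fitted levels at 0.365, 0.680, 0.714 and 0.663 times the control level. Pitx3 passed the filter on low counts only through the groups where it was higher, so it is left out of the count read against all genes, which is 3 of the other 7 members beside 1.72% of the 17671 genes tested called lower. The same 3 of the 7 had every Dot1l(fl/fl) library below every control library (5.25% of all genes did), which restates the call from the same values. Nr4a2, En2, Lmx1a and Foxa1 were not called and overlapped with controls. In Dot1l(fl/+) no member was called against controls, where 8.39% of genes were.

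**Figure D1:**
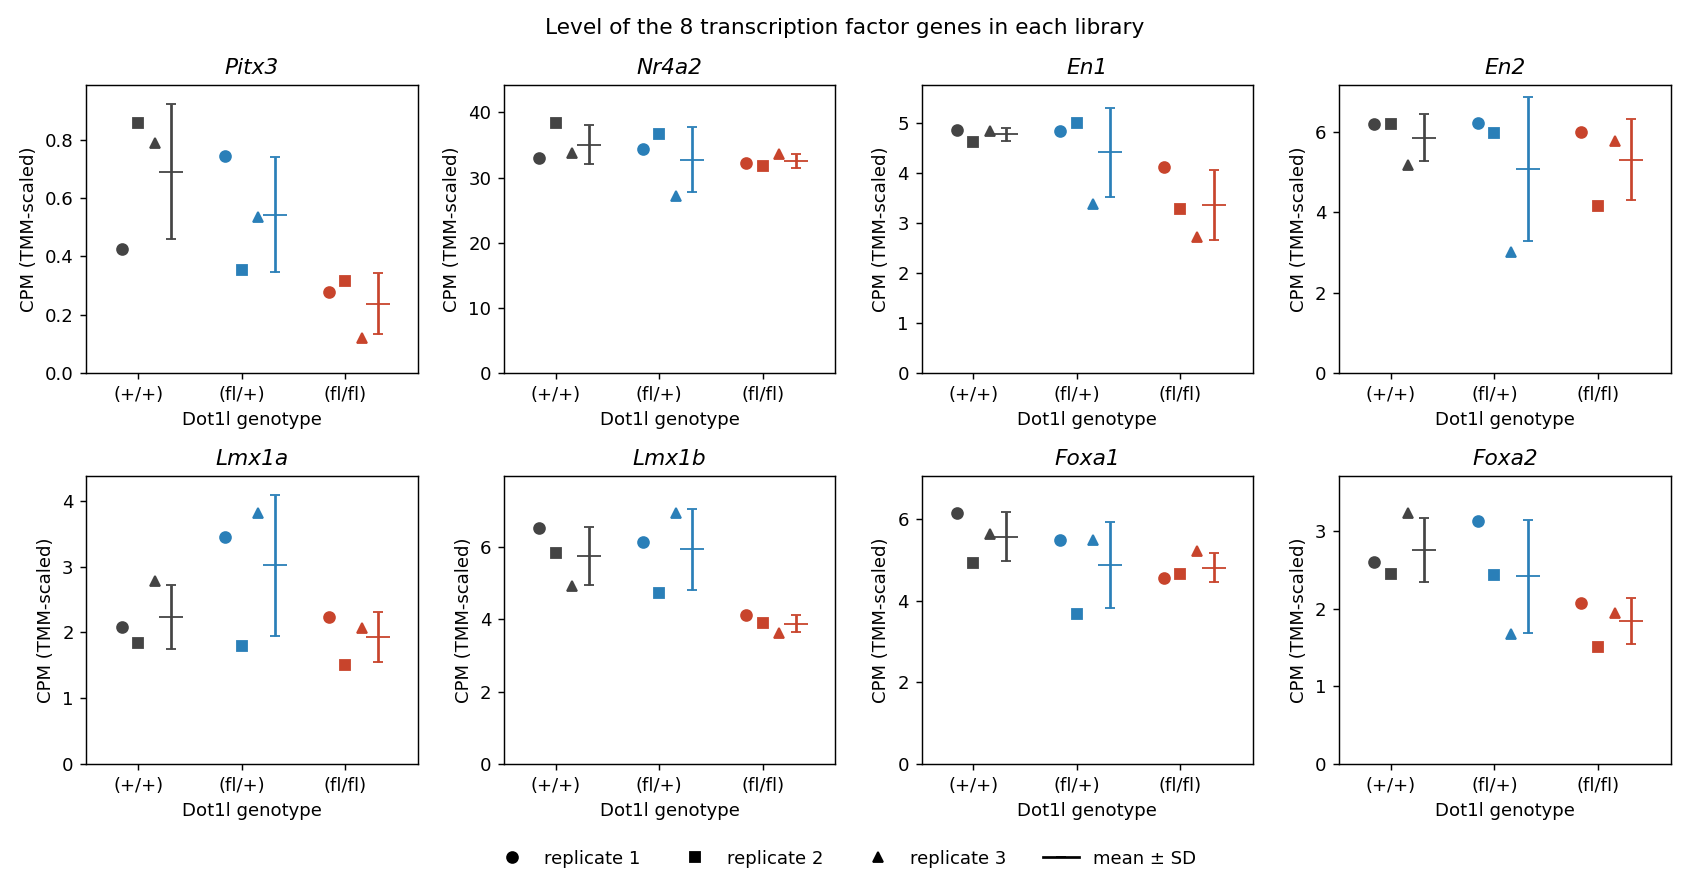
Level of each of the 8 genes in CPM (TMM-scaled counts, vertical axes from 0) in the 9 libraries, by Dot1l genotype. Symbols are the replicate pools and the bars beside them are mean ± SD (n = 3); in Pitx3, Lmx1b, En1 and Foxa2 the 3 Dot1l(fl/fl) libraries sit below the 3 Dot1l(+/+) libraries, while in Nr4a2 the groups overlap and all 9 libraries lie between 27.2 and 38.4 CPM.

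Pitx3, the homeodomain factor that activates Th and Aldh1a1 in the substantia nigra, was counted 9, 20 and 21 times in the Dot1l(+/+) libraries, 19, 10 and 14 times in heterozygotes, and 7, 8 and 2 times in the cKO. This corresponds to 0.425, 0.858 and 0.788 CPM, to 0.744, 0.353 and 0.534 CPM, and to 0.280, 0.316 and 0.121 CPM. The Dot1l(fl/fl) libraries were thus the 3 lowest of the 9. Summed over a group, the 50, 43 and 17 counts gave 0.704 CPM (95% Poisson interval 0.523 to 0.928), 0.538 (0.389 to 0.725) and 0.253 (0.147 to 0.405), intervals that cover counting error only. The log2 fold change of Dot1l(fl/fl) against controls was −1.45 (SE 0.456, unadjusted p = 0.00690, edgeR adjusted p = 0.999), and against Dot1l(fl/+) it was −1.08 (SE 0.467, unadjusted p = 0.0364). None of the 3 Dot1l(fl/fl) libraries reached the level of the filter on low counts, 0.393 CPM, so the p-values of Pitx3 are given as a description. Against Dot1l(fl/+) the unadjusted p was 0.0706 with DESeq2, and 0.149, 0.0608, 0.0595 and 0.109 in edgeR without Dot1l(fl/+) replicate 1 or 3 or Dot1l(fl/fl) replicate 1 or 3.

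Nr4a2, the nuclear receptor upstream of Th, Slc18a2 and Ret, was at 33.0, 38.4 and 33.8 CPM in controls, at 34.4, 36.8 and 27.2 in heterozygotes, and at 32.2, 31.7 and 33.7 in the cKO. The groups overlapped, and the Dot1l(fl/fl) libraries spread least. The log2 fold change of Dot1l(fl/fl) against controls was −0.11, with a 95% interval of −0.33 to 0.11 (unadjusted p = 0.296). Nr4a2 carried the most counts of the 8, with 556 to 1041 per library, and had the narrowest interval. The 4 cortical markers, which mark cells that can also hold Nr4a2, summed to 350.0 to 446 CPM in controls and 385 to 517 in Dot1l(fl/fl), and their part in the value was not tested.

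En1 and En2 are paralogs with overlapping roles in the survival of DA neurons. En1 was at 4.87, 4.63 and 4.84 CPM in controls, a spread of 0.128 CPM (SD, n = 3), at 4.85, 5.01 and 3.39 in heterozygotes and at 4.12, 3.28 and 2.73 in the cKO. En2 was at 6.19, 6.18 and 5.18 CPM in controls, at 6.22, 5.97 and 3.01 in heterozygotes and at 5.99, 4.15 and 5.76 in the cKO. For En1 all 3 Dot1l(fl/fl) libraries lay below the controls, whereas for En2 1 of 3 did, and Dot1l(fl/+) replicate 3 was the lowest of its group for both. The log2 fold change of Dot1l(fl/fl) against controls was −0.49 for En1 (SE 0.182, unadjusted p = 0.0187) and −0.15 for En2 (95% interval −0.64 to 0.35, unadjusted p = 0.537). The En1 value stayed negative with each library left out in turn, at −0.66 (unadjusted p = 0.00592) without Dot1l(fl/fl) replicate 1, −0.45 (unadjusted p = 0.0541) without replicate 2 and −0.37 (unadjusted p = 0.0756) without replicate 3 of that group. The difference between the paralogs was tested as their log2 ratio within each library, which was 0.36 lower in Dot1l(fl/fl) than in controls with overlapping libraries (exact permutation test, two-sided, p = 0.3). With each library left out in turn this difference ran from −0.51 to −0.15.

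Lmx1b and Lmx1a are LIM-homeodomain paralogs that induce Msx1, Nr4a2 and Pitx3 during development. Lmx1b was at 6.52, 5.84 and 4.92 CPM in controls, at 6.15, 4.73 and 6.94 in heterozygotes and at 4.12, 3.91 and 3.64 in the cKO. The Dot1l(fl/fl) libraries lay below every library of both other groups and had an SD of 0.240 CPM (n = 3). The log2 fold change was −0.56 against controls (SE 0.164, unadjusted p = 0.00468, edgeR adjusted p = 0.999) and −0.60 against Dot1l(fl/+) (SE 0.162, unadjusted p = 0.00248, edgeR adjusted p = 0.602). Both unadjusted p-values stayed under 0.05 with every library left out in turn and with DESeq2. In the fit without a filter on low counts, the second passed an adjusted p of 0.05 (0.0388), the only member value to do so in any fit. That fit called 164 of 28316 genes at an adjusted p in this comparison, where the filtered fit called 0. Its test had 1259 degrees of freedom, against 13.3 with the filter, so the value is given as a description.

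Lmx1b is also a gene of serotonin neurons, and those markers varied between dissections. Tph2, Slc6a4 and Fev summed to 6.95, 1.50 and 9.09 CPM in controls, to 7.48, 12.6 and 1.22 in heterozygotes and to 5.51, 3.44 and 1.88 in the cKO, and of Tph2 and Slc6a4, which passed the filter, neither was called in any comparison. Their log2 fold changes in Dot1l(fl/fl) were nonetheless of the same sign as those of Lmx1b and larger, at −0.65 each against controls (SE 0.606 and 0.918) and at −0.92 and −0.97 against Dot1l(fl/+) (SE 0.593 and 0.888), and their part in the Lmx1b values was not tested. The library with the lowest serotonin sum, Dot1l(fl/+) replicate 3, had the highest Lmx1b level of all 9. The 4 markers of noradrenaline neurons summed to 0.0763 to 0.331 CPM in the 9 libraries.

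Lmx1a was at 2.08, 1.85 and 2.78 CPM in controls, at 3.44, 1.80 and 3.81 in heterozygotes and at 2.24, 1.50 and 2.06 in the cKO. The Dot1l(fl/+) libraries held both the highest values and 1 of the lowest, and overlapped with both other groups. The log2 fold change was 0.42 for Dot1l(fl/+) against controls (SE 0.269, unadjusted p = 0.142), −0.22 for Dot1l(fl/fl) against controls (unadjusted p = 0.451) and −0.64 for Dot1l(fl/fl) against Dot1l(fl/+) (SE 0.277, unadjusted p = 0.0367). The first became 0.69 (unadjusted p = 0.00732) without Dot1l(fl/+) replicate 2 and 0.21 (unadjusted p = 0.473) without Dot1l(fl/+) replicate 3. The second ran from −0.36 to −0.026 with each library left out in turn, and the last was −0.44 (unadjusted p = 0.164) without Dot1l(fl/+) replicate 3 and over 0.05 without any one of 3 other libraries.

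Markers of choroid plexus, the epithelium of the ventricles, whose development involves Lmx1a and Otx2, varied widely between the libraries. Ttr, Folr1, Clic6 and Kcne2 summed to 128, 45.4 and 117 CPM in controls, to 91.3, 149 and 537 in heterozygotes and to 23.5, 17.1 and 22.5 in the cKO. Of these 4 markers, 3 were lower in Dot1l(fl/fl) than in controls and 3 higher in Dot1l(fl/+), at an unadjusted p under 0.05, where 1.72% and 4.3% of all genes were called in those directions. Ttr, the thyroid hormone carrier of choroid plexus, had log2 fold changes of −2.44 (SE 0.596) and 1.46 (SE 0.524). The higher values in Dot1l(fl/+) rested on replicate 3, without which Ttr was at 0.31, Folr1 at 0.39 and Clic6 at 0.40 with none called, and none of the 3 was called without Dot1l(+/+) replicate 2 either. Dot1l(fl/+) replicate 3, with the most choroid plexus RNA, had the highest Lmx1a level, while Dot1l(fl/+) replicate 1, with 91.3 CPM of those markers, had the next highest. Dot1l(fl/+) replicate 2 went the other way, with the next most choroid plexus RNA (149 CPM) and a low Lmx1a level (1.80 CPM). The part of choroid plexus in the Lmx1a values was not tested.

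**Figure D2:**
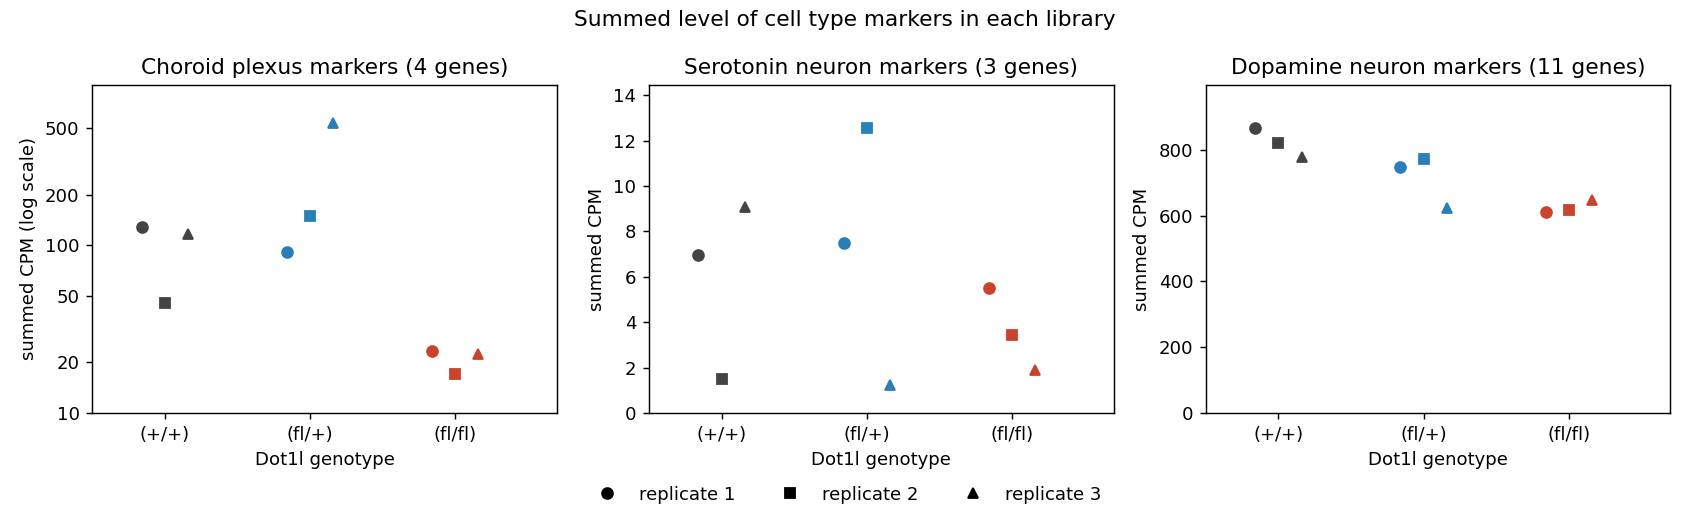
Summed level of markers in each of the 9 libraries, by Dot1l genotype and replicate, in CPM (left axis logarithmic, the others from 0). Choroid plexus markers reached 537 CPM in Dot1l(fl/+) replicate 3 and 17.1 to 23.5 in Dot1l(fl/fl), serotonin neuron markers ranged from 1.22 to 12.6 and overlapped between genotypes, with 1.88 to 5.51 in Dot1l(fl/fl), and DA neuron markers were at 778 to 867 CPM in Dot1l(+/+) and 611 to 646 in Dot1l(fl/fl).

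Foxa1 and Foxa2 are forkhead pioneer factors that open chromatin in DA progenitors and are still expressed in adult DA neurons. Foxa2 was at 2.60, 2.45 and 3.23 CPM in controls, at 3.13, 2.44 and 1.68 in heterozygotes and at 2.08, 1.50 and 1.94 in the cKO. Foxa1 was at 6.14, 4.93 and 5.63 CPM in controls, at 5.48, 3.67 and 5.49 in heterozygotes and at 4.56, 4.66 and 5.21 in the cKO. The Dot1l(fl/fl) libraries of Foxa2 lay below the controls, and those of Foxa1 overlapped with them in 1 of 3 libraries. The log2 fold change against controls was −0.59 for Foxa2 (SE 0.240, unadjusted p = 0.0276) and −0.22 for Foxa1 (95% interval −0.57 to 0.14, unadjusted p = 0.211). The Foxa2 value was −0.46 (unadjusted p = 0.116) without Dot1l(+/+) replicate 3 and −0.45 (unadjusted p = 0.115) without Dot1l(fl/fl) replicate 2. Their log2 ratio was 0.36 lower in Dot1l(fl/fl) than in controls with overlapping libraries (exact permutation test, two-sided, p = 0.2). This difference ran from −0.49 to −0.25 with each library left out in turn.

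In Dot1l(fl/fl) against controls, edgeR called 0 members and 0 genes at an adjusted p of 0.05 (0% of 17671, lowest adjusted p 0.0906), while 694 genes (3.93%) had an unadjusted p under 0.05 and DESeq2 called 4 genes at the adjusted threshold, none of them a member. The share called lower amounted to 304 genes, and 927 genes had all Dot1l(fl/fl) libraries below all controls. The median log2 fold change was −0.36 over the 8 members and 0.00090 over all genes tested. With each library left out in turn, 1 to 3 of the 7 members other than Pitx3 were called, beside 2.13% to 5.26% of all genes in either direction. The 1 called without Dot1l(fl/fl) replicate 2, beside 2.13% of all genes, was Lmx1b.

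In Dot1l(fl/fl) against Dot1l(fl/+), 0 members and 0 genes (0%) passed the adjusted threshold in edgeR, and DESeq2 called 12 genes, none a member. At the unadjusted threshold 3 members, Pitx3, Lmx1a and Lmx1b, were lower. Without Pitx3, for the reason given above, this is 2 of 7 members, beside 508 genes (2.87%) called lower and 1145 (6.48%) in either direction. En1 was at −0.37 (unadjusted p = 0.0587), and at −0.38 (unadjusted p = 0.0411) in the fit with the replicate number as a block. The count of 2 went down to 1, Lmx1b, without Dot1l(fl/+) replicate 1, Dot1l(fl/fl) replicate 2 or Dot1l(fl/fl) replicate 3. In these fits 9.37%, 5.55% and 5.29% of all genes were called in either direction. The count of members was 3 without Dot1l(fl/fl) replicate 1, with En1 gained (−0.55, unadjusted p = 0.0162), beside 5.37% of all genes. Without Dot1l(fl/+) replicate 3 it was also 3, beside 4.9% of all genes, namely En1 (−0.53, unadjusted p = 0.00806), Foxa2 (−0.60, unadjusted p = 0.0192) and Lmx1b.

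In Dot1l(fl/+) against controls, 0 members were called at either threshold. At the adjusted threshold edgeR called 0 genes (0%) and DESeq2 called 7, and at the unadjusted one 1483 genes (8.39%) were called in either direction. The members' log2 fold changes ran from −0.37 for Pitx3 to 0.42 for Lmx1a with a median of −0.15, beside a median of −0.0034 over all genes. This comparison shares its controls with that of Dot1l(fl/fl), so the 2 sets of values are not independent.

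A slope over 0, 1 and 2 floxed alleles called the same 4 members as the comparison of Dot1l(fl/fl) with controls, or 3 of 7 without Pitx3. The slopes were −0.68 per allele for Pitx3 (SE 0.221, unadjusted p = 0.00821), −0.29 for Foxa2 (SE 0.117, unadjusted p = 0.0256), −0.27 for Lmx1b (SE 0.0962, unadjusted p = 0.0143) and −0.24 for En1 (SE 0.0907, unadjusted p = 0.0192). Lower slopes were called in 266 genes (1.51%), and 0 genes (0%) passed the adjusted threshold in edgeR, with 5 in DESeq2. For Lmx1b the slope does not describe the order of the means, as Dot1l(fl/+) stood at 5.94 CPM against 5.76 in controls. The slope called 0 of the 7 members other than Pitx3 without Dot1l(fl/fl) replicate 2, beside 2.06% of all genes in either direction. Without Dot1l(fl/fl) replicate 3 it called 1 of them, Foxa2, beside 5.13%. Lmx1b had an unadjusted p of 0.0523 and 0.0527 in these fits.

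**Figure D3:**
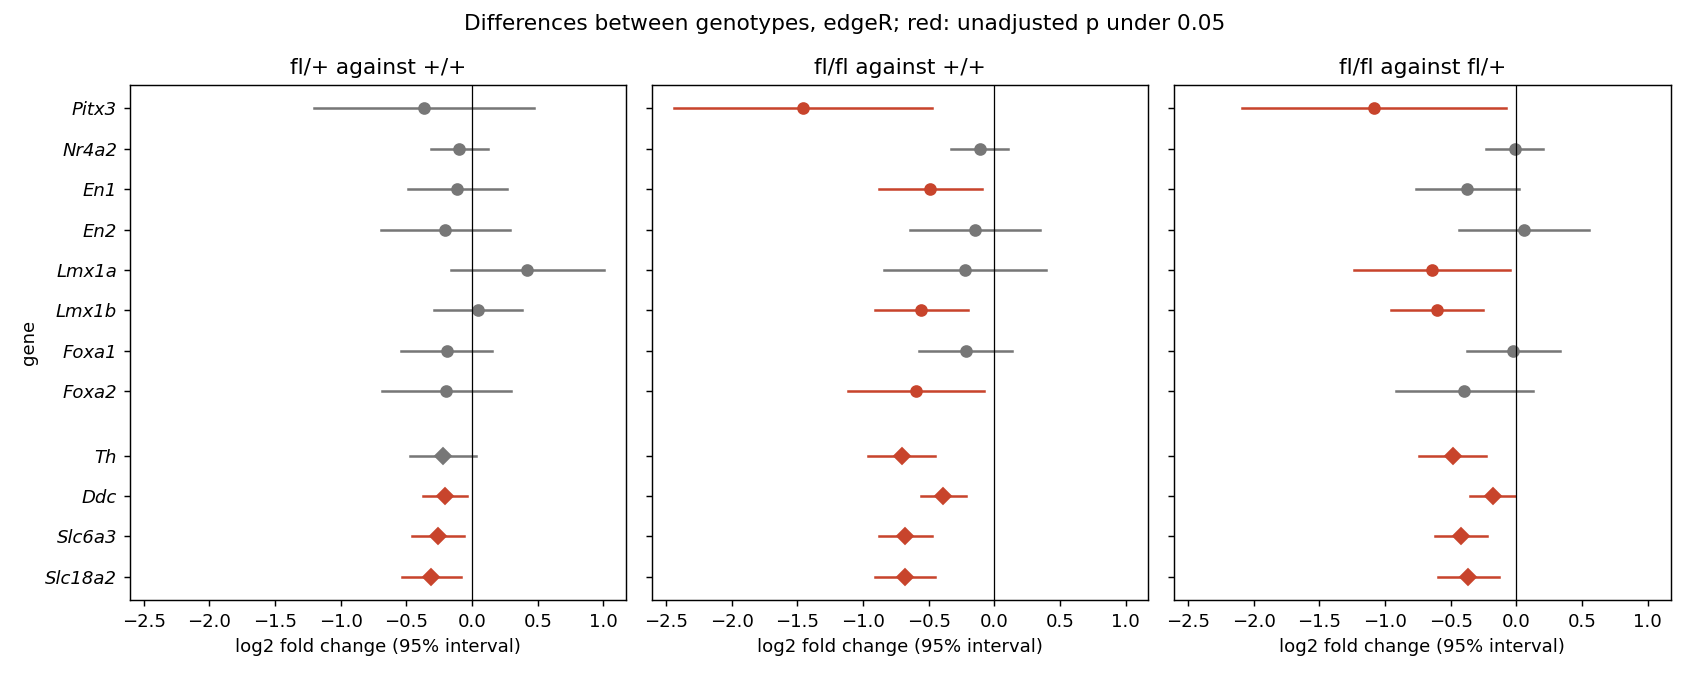
Log2 fold change with its 95% interval (horizontal axis) for the 8 transcription factors (circles) and 4 transmitter genes (diamonds) in each comparison of genotypes, from edgeR on 9 libraries. Red marks an unadjusted p under 0.05: 0 members in heterozygotes and, leaving out Pitx3 for its filter, 3 of 7 in Dot1l(fl/fl) against Dot1l(+/+) and 2 of 7 in Dot1l(fl/fl) against Dot1l(fl/+).

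The transcription factors were next set beside the transmitter genes that they regulate. Th, Slc6a3, Slc18a2 and Ddc, the enzymes and transporters of dopamine, had log2 fold changes of −0.71 (SE 0.118), −0.68 (SE 0.0928), −0.68 (SE 0.107) and −0.39 (SE 0.0796) in Dot1l(fl/fl) against controls. For each library and member, the log2 CPM of the member minus the mean log2 CPM of these 4 genes was taken, which is a relative level that library scaling does not alter. A member whose RNA was lower in the same proportion as the transmitter genes would keep this value. Because the mean of the 4 transmitter genes was itself lower by 0.61 in Dot1l(fl/fl), a gene with no change would stand 0.61 higher. The median over all genes tested was likewise 0.61 higher, and 85% of genes had every Dot1l(fl/fl) library above every control.

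Nr4a2 was near the value of a gene with no change. Its relative level was −1.60, −1.26 and −1.36 in controls, −1.28, −1.24 and −1.24 in heterozygotes and −0.918, −0.904 and −0.894 in the cKO. Every Dot1l(fl/fl) library was above every library of both other groups, and the SD within Dot1l(fl/fl) was 0.0123. The mean was 0.50 higher in Dot1l(fl/fl) than in controls (exact permutation test, two-sided, p = 0.1, the smallest that 3 against 3 libraries allow; adjusted over the 8 members p = 0.267). En2 and Foxa1 were also above all controls, by 0.46 and 0.40, each with the same exact permutation p = 0.1 and adjusted p = 0.267. As 85% of all genes did the same, this is not particular to these 3 members.

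Pitx3 had a relative level 0.66 lower in Dot1l(fl/fl) than in controls (exact permutation p = 0.3, libraries overlapping), and 0.35 lower without Dot1l(fl/fl) replicate 3 and 1.00 lower without Dot1l(+/+) replicate 1. With a prior count of 0.5 in place of 2 it was 0.88 lower, so its size depends on the prior count. En1, Lmx1b and Foxa2, which were lower in absolute level, differed by 0.097, 0.060 and 0.043 in relative level, with exact permutation p-values of 0.7, 0.5 and 1. Lmx1a was 0.41 higher (exact permutation p = 0.2). The mean of the transmitter genes was also lower in Dot1l(fl/+), by 0.26, so a gene with no change would stand 0.26 higher there. The median over all genes tested was 0.25 higher. Beside that, the relative levels of the 8 members in Dot1l(fl/+) differed from controls by −0.043 to 0.63. All overlapped with controls, with exact permutation p-values from 0.2 to 1. As a design of 3 against 3 cannot go below 0.1, none of these differences could pass 0.05.

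**Figure D4:**
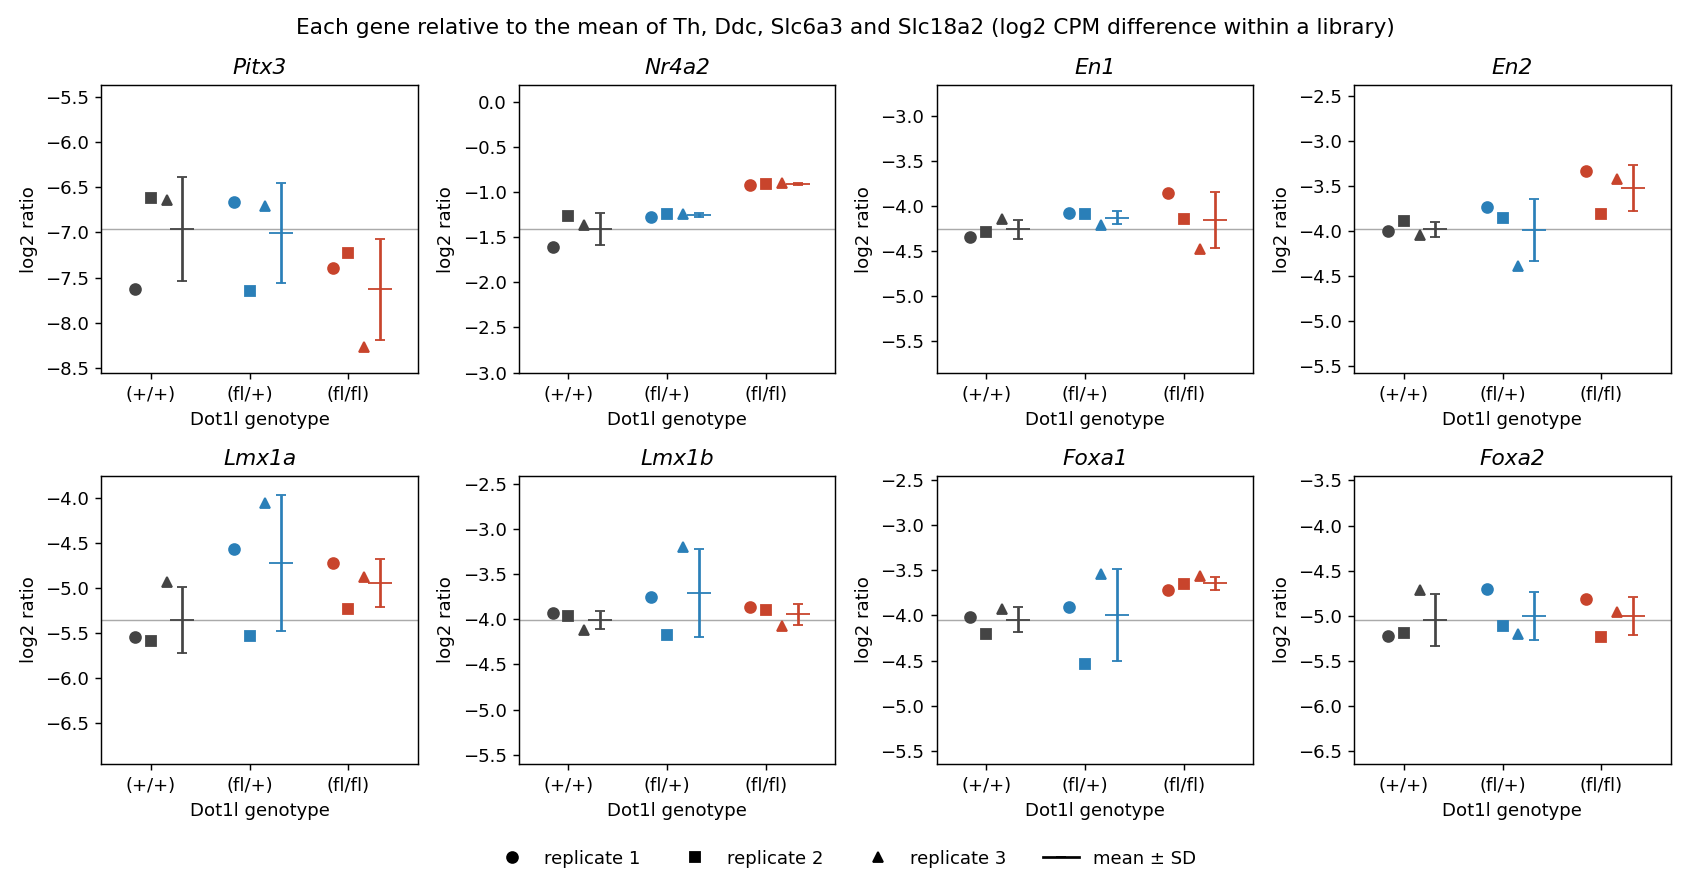
Log2 CPM of each gene minus the mean log2 CPM of Th, Ddc, Slc6a3 and Slc18a2 in the same library, by Dot1l genotype (all vertical axes have the same span, centred on the control mean, grey line). Symbols are replicate pools and bars are mean ± SD (n = 3); Nr4a2, En2 and Foxa1 lie above all controls in Dot1l(fl/fl), as do 85% of all genes, Pitx3 lies lower on average with overlap, and En1, Lmx1b and Foxa2 stay near the control mean.

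Within the pairs, the log2 ratio of Pitx3 to Nr4a2 was −6.03, −5.36 and −5.28 in controls, −5.38, −6.40 and −5.47 in heterozygotes and −6.48, −6.32 and −7.37 in the cKO. All 3 Dot1l(fl/fl) values lay below the controls, by 1.17 on average, or by 1.38 with a prior count of 0.5 in place of 2. This is a description, as it rests on the 2 to 8 counts of Pitx3 in each Dot1l(fl/fl) library. Besides this pair and the paralog pairs above, Lmx1b to Lmx1a was compared and differed by −0.35 with overlapping libraries (exact permutation p = 0.3). That value ran from −0.62 to −0.21 with each library left out in turn. The 4 pairs were chosen after their values were seen.

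From library to library within genotypes, the members did not move together with the transmitter genes in one way. Over the 9 libraries with genotype means removed, Pearson's r with the mean of the 4 transmitter genes was highest for En2 (r = 0.90, Spearman's rho = 0.83, exact permutation p = 0.0324 and 0.0278, adjusted over 8 members p = 0.259 and 0.222). It was 0.77 for Nr4a2, 0.61 for En1 and 0.57 for Foxa2, and −0.36, −0.37, −0.38 and −0.57 for Foxa1, Pitx3, Lmx1b and Lmx1a, with rho from −0.53 to 0.60 and exact permutation p-values from 0.157 to 0.736 over both measures. Without the 2 libraries farthest from the median of the transmitter mean, r was 0.72 for En2, 0.14 for Nr4a2, 0.058 for En1 and 0.19 for Foxa2, so the last 3 rested on those libraries. The same step turned the sign for Foxa1 (0.67), Lmx1b (0.73) and Lmx1a (0.011), while Pitx3 stood at −0.42.

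The genes whose log2 CPM followed each member most closely over the 9 libraries, genotype differences included, are given as a description, since 17668 genes were searched over 9 points. For Nr4a2 they were Tacr3 (r = 0.95), Tipin (0.94) and Hus1 (0.93), and for Pitx3 they were Gm37426 (0.93), Heyl (0.93) and Gm3086 (0.90). For En1 they were Mir6955 (0.93) and Trbc2 (0.92), and for En2 Zfp146, 9530026P05Rik and Gm37277 (each 0.94). Lmx1a was followed by Henmt1 (0.96), Calcr (0.95) and Rnf43 (0.95), and Lmx1b by Kiss1r (0.95) and Mgat5b (0.95). Foxa1 was followed by Cfap44 (0.98), Kcnk9 (0.98) and Slc27a1 (0.97), and Foxa2 by Slc23a2 (0.97), Hivep3 (0.96) and Kmt2a (0.94). No member was among the 3 closest genes of another.

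Among the other genes of the pathway, most listed targets of Nr4a2 and Pitx3 were lower in Dot1l(fl/fl). Of 10 listed targets, 7 were lower than in controls at an unadjusted p under 0.05 (1.72% of all genes were) and 0 higher, with a median log2 fold change of −0.24. Besides the 4 transmitter genes these were Ret, the receptor of the survival factor GDNF (−0.24, SE 0.0670), Aldh1a1, which makes retinoic acid in the ventral substantia nigra (−0.22, SE 0.0712), and Ptpru, a receptor phosphatase (−0.20, SE 0.0840). Drd2, Dlk1 and Klhl1 were not called. In Dot1l(fl/+), 4 of the 10 were lower, Ddc, Slc6a3, Slc18a2 and Ret, beside 4.09% of all genes.

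Of 10 other transcription factors of DA neurons, 2 were lower in Dot1l(fl/fl) than in controls, 1 was higher and 7 were not called, beside 3.93% of all genes called in either direction. Sox6, which marks substantia nigra neurons, was at −0.24 (SE 0.0960, unadjusted p = 0.0239) and Ebf2 at −0.32 (SE 0.125, unadjusted p = 0.0247). Neurod6, which marks a set of ventral tegmental neurons and also cortical neurons, was at 0.42 (SE 0.170, unadjusted p = 0.0272). Against Dot1l(fl/+), Otx2 (−0.34, SE 0.128) and Sox6 were lower (2.87% of all genes were), and Otx2, a gene also active in choroid plexus, was highest at 11.7 CPM in Dot1l(fl/+) replicate 3.

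The genes that pattern the embryonic midbrain with the members were mostly low or not called. Of 10, 7 passed the filter, Wnt1, Fgf8 and Corin did not, and 0 were called in Dot1l(fl/fl) against controls. Msx1, a target of Lmx1a, was lower in Dot1l(fl/fl) than in Dot1l(fl/+) (−0.53, SE 0.202, unadjusted p = 0.0203), with 4.61 CPM in Dot1l(fl/+) replicate 3 as its highest library. Of 10 cofactors of the members, Rcor1, a corepressor that binds Nr4a2, was the 1 called in Dot1l(fl/fl) against controls (−0.15, SE 0.0667, unadjusted p = 0.0437). Rcor1 (−0.16) and Rxrg (0.44, SE 0.152), a retinoid receptor of the family that pairs with Nr4a2, were called in Dot1l(fl/+), beside 8.39% of all genes in either direction.

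Close relatives of the members were not called in Dot1l(fl/fl) against controls. Of 9 related factors, 7 passed the filter and 0 were called, with a median log2 fold change of −0.031, while Pitx1 and Foxa3 did not pass it. Lhx9, a LIM-homeodomain relative of Lmx1a and Lmx1b, was lower in Dot1l(fl/+) than in controls (−0.21, SE 0.0633, unadjusted p = 0.00513) and higher in Dot1l(fl/fl) than in Dot1l(fl/+) (0.30, SE 0.0633). In the latter comparison 3 of the 7 were higher, the others being Lhx2 (0.21, SE 0.0846) and Nr4a3 (0.31, SE 0.126), beside 3.6% of all genes. Of 8 immediate early genes, the class to which the Nr4a family belongs through Nr4a1, 1 was called in Dot1l(fl/fl) against controls, beside 3.93% of all genes in either direction. This was Fosb at 0.48 (SE 0.208, unadjusted p = 0.0375), while 6 of the 8 were negative and the median was −0.071.

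Many of these single calls depended on 1 library. The listed genes called in Dot1l(fl/fl) against controls numbered 18, and 11 to 21 with each library left out in turn, with 11 without Dot1l(fl/fl) replicate 1 or 2. Th, Slc6a3, Slc18a2, Ddc and Ret kept an unadjusted p under 0.05 each time in this comparison, while Aldh1a1, Ptpru, Sox6, Ebf2, Neurod6, Rcor1 and Fosb each lost it without at least 1 library. Sox6 went to −0.14 and Neurod6 to 0.27 without Dot1l(fl/fl) replicate 1, and Ptpru to −0.12 without Dot1l(fl/fl) replicate 2. In Dot1l(fl/fl) against Dot1l(fl/+), Lhx9 kept its call each time, and Otx2, Sox6, Msx1, Lhx2 and Nr4a3 did not, with Nr4a3 at 0.18 without Dot1l(fl/+) replicate 3. In Dot1l(fl/+) against controls, Ddc, Slc6a3, Ret, Rcor1 and Rxrg lost theirs without at least 1 library.

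Markers of other cells in the dissection are given beside these genes. In Dot1l(fl/fl) against controls, 0 of 5 oligodendrocyte, 0 of 5 astrocyte, 0 of 4 endothelial, 0 of 3 GABA neuron, 0 of 4 cortical, 0 of 5 subthalamic and mammillary and 0 of 2 tested cerebellar markers were called, and 1 of 5 microglia markers was, Aif1 at 0.42 (unadjusted p = 0.0269). Of the 11 DA neuron markers, 8 were lower (1.72% of all genes were), 0 were higher and 3 were not called, with a median log2 fold change of −0.32. In Dot1l(fl/+) against controls 7 of the 11 were lower and 0 higher, with a median of −0.22, beside 4.09% of all genes called lower. Foxb1, 1 of 5 subthalamic and mammillary markers, was lower there too. Higher in that comparison were 3 of 4 choroid plexus, 1 of 5 oligodendrocyte (Mog) and 1 of 5 astrocyte markers (Aldh1l1), beside 4.3% of all genes. In Dot1l(fl/fl) against Dot1l(fl/+), where Lmx1a and Lmx1b were called, 4 of the 11 DA neuron, 4 of 4 choroid plexus, 2 of 5 oligodendrocyte (Mag and Mbp) and 1 of 5 subthalamic and mammillary markers (Nkx2-1 at −0.64, SE 0.292) were lower, beside 2.87% of all genes. The calls of Mag, Mbp and Nkx2-1 were lost without at least 1 library, as was that of Aif1 above. The subthalamic and mammillary markers summed to 25.3 to 31.8 CPM in controls and 22.9 to 27.4 in Dot1l(fl/fl), and the part of these markers in the values of Foxa2, Lmx1a and Lmx1b was not tested.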

How the data were processed

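RNA was measured in 9 libraries of dissected midbrain. Per the labels, the authors demultiplexed with bcl2fastq 2.17, trimmed with Trimmomatic 0.30, mapped to GRCm38.p4 and analysed with DESeq2 1.10.1. The aligner, the counter, the annotation and its strand setting are not given in the sources used here. The deposited values are raw counts per Ensembl gene; the authors' tables of fold changes and p-values were not used. Of 47729 rows, 47310 had a symbol in GENCODE M21.

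Counts were tested with edgeR 4.0.16 (R 4.3.3) by the quasi-likelihood test with all 9 libraries fitted together on genotype, TMM scaling and filterByExpr (minimum count 10), which kept 17671 genes. The common biological coefficient of variation was 8.81%. P-values were adjusted by Benjamini-Hochberg over all genes kept, the standard error is the log2 fold change over the square root of F, and unadjusted p-values are from the same test. Intervals are 95%. Log2 CPM used a prior count of 2. DESeq2 1.42.0, other scaling, filters and groups, a replicate block and each library left out were the alternatives. Steps were tested on simulated data. Exact permutation tests went through every order with NumPy 2.4.6, and SciPy 1.17.1 gave the rank correlations and the adjusted p-values of those tests. Per kb values divide by the union of exons.

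The members and gene lists were chosen with earlier results of these data known. The text names the members, Dot1l, list genes and, for each member, the 3 genes most correlated with it, of which 1 each for En1 and Lmx1b is not reported here. A replicate is a pool of 3 mice, so p-values measure the spread between pools. Replicates of a group differed by 4.35 to 16.3 times counting variance (chi-square per degree of freedom), so none was a repeat deposit. The series' design text speaks of sorted cells at E15.75, while every library label gives dissected tissue at 180 days, which was followed. Sequences are RefSeq, GRCm38.p6.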

Additional observations from a re-analysis of the deposited data

How the results depend on the processing

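Of the 4 members lower in Dot1l(fl/fl) than in controls, Lmx1b was called under every alternative, and En1 and Foxa2 under every alternative but the left-out libraries named beside them. DESeq2 size factors changed no member's call or direction. Depth limits Pitx3 most, with 2 to 21 counts per library. It was not kept with 10 counts in every library, and its calls under the other alternatives are no support.

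Without a filter on low counts, 1 of the 7 members other than Pitx3 (Lmx1a) was called in Dot1l(fl/+) against controls, beside 2155 genes (7.61%). In Dot1l(fl/fl) against Dot1l(fl/+) 3 of the 7 were called, with En1 gained, beside 1795 genes (6.34%). The genes called at an unadjusted p were 1210 (4.27%) in Dot1l(fl/fl) against controls and 1029 (3.63%) for the slope. At an adjusted p this fit called 118, 164 and 251 genes in the comparisons of Dot1l(fl/fl) with controls, of Dot1l(fl/fl) with Dot1l(fl/+) and of Dot1l(fl/+) with controls, where the filtered fit called 0. It tested 28316 genes and its test had 1259 degrees of freedom, against 13.3 with the filter. DESeq2 called 450 genes at an unadjusted p in Dot1l(fl/fl) against controls.

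With each library left out in turn, the genes called at an unadjusted p ran from 976 to 2235 in Dot1l(fl/+) against controls, from 382 to 942 in Dot1l(fl/fl) against controls, from 876 to 1752 in Dot1l(fl/fl) against Dot1l(fl/+), and from 369 to 919 for the slope. Of the 7 members other than Pitx3, the number called ran from 0 to 1, from 1 to 3, from 1 to 3 and from 0 to 3 in the same order. The shares of all genes called in either direction ran from 5.45% to 12.5%, from 2.13% to 5.26%, from 4.9% to 9.79% and from 2.06% to 5.13%. The log2 fold changes that changed sign were small. In Dot1l(fl/+) against controls they ran from −0.21 to 0.045 for En1, from −0.37 to 0.062 for En2, from −0.42 to 0.0044 for Foxa2, from −0.080 to 0.19 for Lmx1b and from −0.19 to 0.021 for Nr4a2. In Dot1l(fl/fl) they ran from −0.25 to 0.013 for En2 against controls, and against Dot1l(fl/+) from −0.21 to 0.23 for En2, from −0.20 to 0.071 for Foxa1 and from −0.13 to 0.079 for Nr4a2. The slope of Lmx1a ran from −0.20 to 0.020. The cause of these changes was not tested.

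The relative level to the transmitter genes changed sign, with a library left out, for En1 in Dot1l(fl/fl) (−0.054 to 0.26) and Foxa2 in Dot1l(fl/fl) (−0.049 to 0.21), and in Dot1l(fl/+) for En2 (−0.14 to 0.19), Foxa1 (−0.18 to 0.33), Foxa2 (−0.11 to 0.21) and Pitx3 (−0.38 to 0.28). In Dot1l(fl/+) without Ddc it was 0.0062 for En2. The ratios of 2 members that did so in Dot1l(fl/+) were En1 to En2 (−0.018 to 0.24), Foxa2 to Foxa1 (−0.23 to 0.31) and Pitx3 to Nr4a2 (−0.43 to 0.13). With genotype means kept, the correlation with the transmitter genes was 0.61 for Pitx3, 0.016 for Lmx1a, 0.58 for Lmx1b and 0.21 for Foxa1, all opposite in sign to the value with means removed. Without the 2 libraries farthest from the median it was 0.011 for Lmx1a, 0.73 for Lmx1b and 0.67 for Foxa1.

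The study's methods describe sets of the 3 genotypes taken from the same nest, without saying that the replicate numbers mark them. Deviations of same-numbered libraries correlated at 0.022 to 0.32, over 0.1 in 6 of 9 pairs where pairing was taken to need all of them, and a library correlated best with its own number in 15 of 18 cases. With the replicate block, 4, 4, 0 and 4 members were called in Dot1l(fl/fl) against controls, Dot1l(fl/fl) against Dot1l(fl/+), Dot1l(fl/+) against controls and the slope, and En1 was the member gained in the second. Without Pitx3 these were 3, 3, 0 and 3 of 7, beside 4.43%, 7.12%, 9.34% and 3.61% of all genes called in either direction. At an adjusted p the block called Th, Slc6a3 and Slc18a2 in the first and for the slope, and Clic6, Pmch and Ttr in the second, with no member among them.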
